A study of Mus musculus with 12 samples.

Results

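Fibronectin leucine-rich transmembrane proteins (FLRTs), teneurins and latrophilins are surface proteins that hold neurons, and the processes they send out, to one another. The 10 mouse genes of these families, Flrt1 to Flrt3, Tenm1 to Tenm4 and Adgrl1 to Adgrl3, were found by gene symbol among the 51912 genes of the count files, and all 10 carried counts in all 12 libraries. The libraries were made from cerebral cortex at embryonic day 15.5. Of these, 6 came from mutants in which Arid1a, which encodes a subunit of BAF, a complex that remodels chromatin, was conditionally mutated with Emx1-Cre, and 6 came from controls whose alleles the labels do not specify. Emx1-Cre is active in the progenitors that build the cortex and in the cells they give rise to, so interneurons, blood vessels and other cells that enter the cortex from outside that lineage keep the gene. Litter 1 gave 2 mutants, both female, and 4 controls, of which 1 was female and 3 were male. Litter 2 gave 4 mutants, of which 3 were female and 1 was male, and 2 controls, 1 of each sex. All 12 libraries carried the same batch label. The labels give each library its own litter and sex but do not say outright that each is a separate embryo, so p-values measure the spread between these libraries.

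A FLRT on one cell binds UNC5 receptors on another, which repels migrating neurons, and it binds latrophilins, which favours adhesion. Teneurins are very large single-pass proteins whose extracellular part binds latrophilins across the gap between cells and binds other teneurins of the same kind. Latrophilins are adhesion G protein-coupled receptors, and a FLRT and a teneurin can sit on the same latrophilin at the same time. In the developing cortex these contacts are known to steer radial migration, tangential spread of neurons and the matching of synaptic partners.

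Counts on genes totalled 643197 to 3525121 per mutant library and 1476478 to 2815042 per control library, so the shallowest libraries were mutants. Cortical identity was checked with 6 marker genes (Emx1, Emx2, Neurod2, Neurod6, Tbr1 and Fezf2). None was at 0, and all 6 had negative log2 fold changes (median -0.33) with 0 called. Their summed level was 539 to 739.7 CPM in mutants and 432 to 982 CPM in controls, where CPM is the usual depth-scaled count (counts per megaread of library size, with library sizes scaled by the trimmed mean of M values, TMM). Markers of striatum and ganglionic eminence, the ventral tissue that borders the cortex, were also present. Their 15 genes summed to 112 to 1177 CPM in mutants and 66.8 to 1087 CPM in controls. Of the 15, 6 had enough counts to be tested, all with positive log2 fold changes (median 1.127) and 0 called. Interneuron markers summed to 337 to 841 CPM over 11 genes in mutants and 252 to 756 CPM in controls. All 10 tested were positive (median 0.56) with 0 called. Over all genes tested, 0.215% were called and 50.1% had negative log2 fold changes, so 0 called is usual for lists this short. Of the marker lists computed, only that of deep-layer and subplate neurons held a called gene. There 1 of 9 tested was called, and the median log2 fold change was -0.36. Meningeal markers were near 0, with a sum of 3.19 to 11.2 CPM over 6 genes in mutants and 6.27 to 37.6 CPM in controls. Arid1a itself lay at 396 to 525 CPM in mutants, against 464 to 575 CPM in controls, and the difference was -0.30 on the log2 scale (SE 0.0958, adjusted p = 0.277 by the edgeR quasi-likelihood test). This is a gene total in which a lost exon cannot be seen. In bulk tissue, fewer cells of a type and less RNA per cell cannot be told apart.

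None of the 10 genes passed the test for a difference between mutant and control cortex, and the gene closest to it was Flrt1, with lower values in mutants. Each gene was tested in a fit across 10678 genes that held litter, sex and genotype, at a Benjamini-Hochberg adjusted p under 0.05. Over all genes tested, 0.215% passed, 0.159% as lower and 0.0562% as higher in mutants. By edgeR 0 of the 10 were called, by limma-voom 0 and by DESeq2 1, Flrt1. DESeq2 called 77 of the 10678 genes as lower and 18 as higher. At an unadjusted p under 0.05 stood 3 of the 10 (Flrt1, Tenm4 and Adgrl3), where 8.78% of all genes did. Of the 10 log2 fold changes 3 were negative and 7 positive, with a median of 0.06, against -0.00088 over all genes. All 10 genes passed the filter on low counts. No gene of the 10 had all 6 mutants outside the control range, which held for 0.927% of all genes below it and 0.337% above it.

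**Figure D1:**
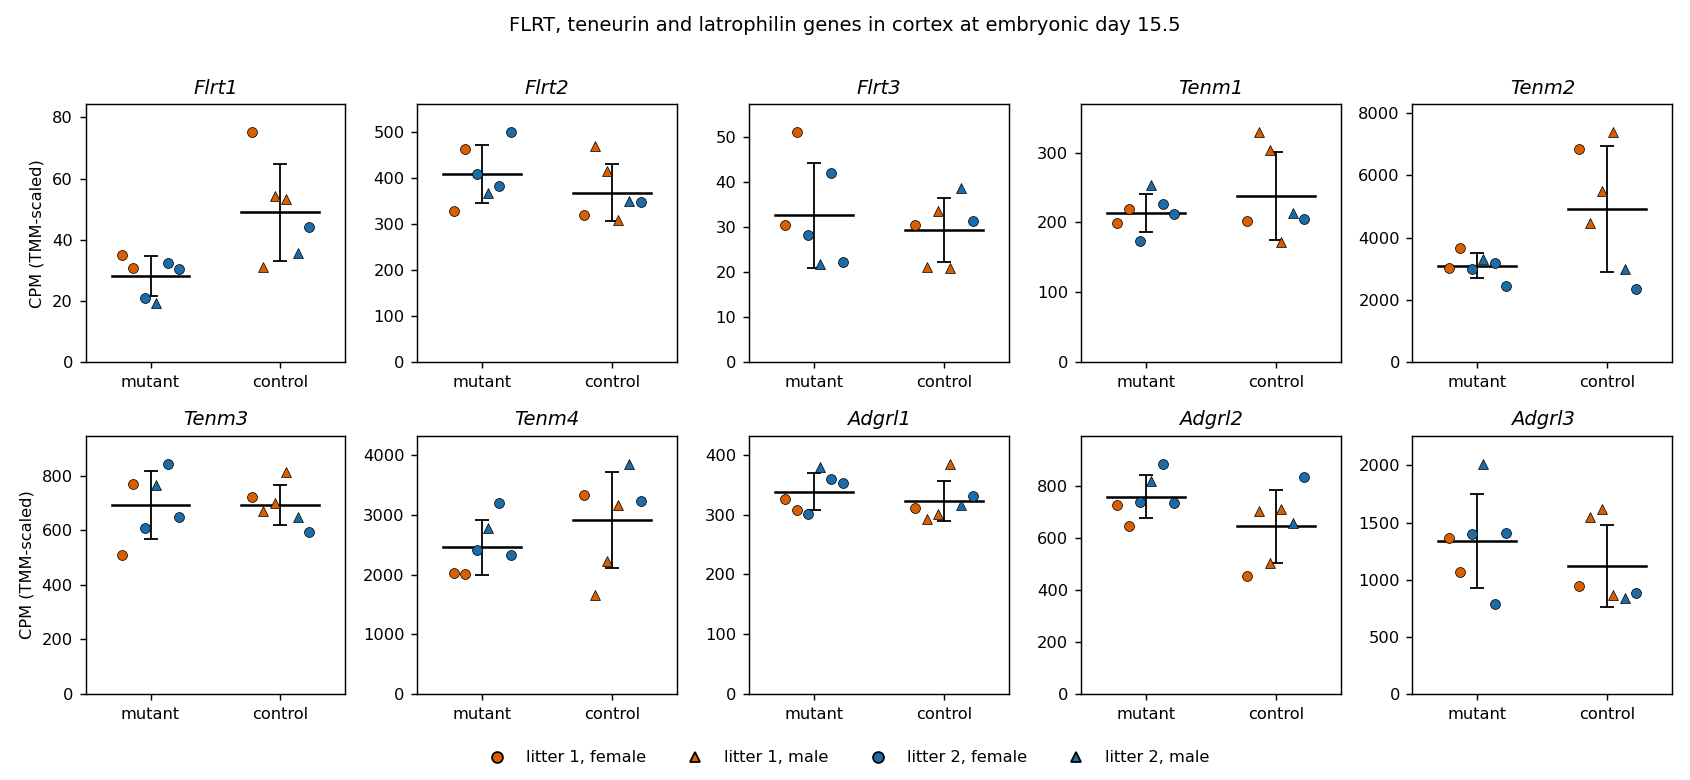
TMM-scaled CPM (vertical axes, from 0) of the 10 genes in each library, with mutants left and controls right. Points are libraries, coloured by litter and shaped by sex, and bars are the mean and SD of 6 libraries. Mutant values of Flrt1 were 19.3 to 34.9 CPM and control values were 31.1 to 75.2 CPM, while the groups overlapped widely in most other panels.

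The FLRTs are ligands of the UNC5 receptors. Flrt2 made up most of the family in CPM, with 83.4 to 90.4% of the summed FLRT CPM in mutants and 75.1 to 90.0% in controls. These shares are not corrected for length. Per kilobase of exon the means over the 12 libraries were 50.3 CPM for Flrt2, 6.58 for Flrt1 and 6.37 for Flrt3. Per kilobase of gene span they lay closer together, at 4.18, 2.81 and 1.51. Flrt1 and Flrt3 had the fewest counts of the 10 genes, with 15 to 180 and 17 to 102 per library.

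Flrt1 encodes a family member that is found mainly in the nervous system. Mutants 1 to 6 had 34.9, 30.9, 21.04, 19.3, 32.5 and 30.7 CPM of Flrt1, and controls 1 to 6 had 75.2, 31.1, 54.2, 53.4, 35.9 and 44.2 CPM. All 6 mutants lay below the control mean, 4 lay below every control, and the overlap came from control 2, a library at the low end of its group. Flrt1 averaged 28.2 ± 6.46 CPM over the mutants, against 49.0 ± 15.8 CPM over the controls (SD, n = 6 each). The log2 fold change was -0.91 (SE 0.197, 95% interval -1.37 to -0.46, adjusted p = 0.0599 by edgeR), and 36 of the genes tested had a smaller p. In litter 1 alone the value was -1.21 (SE 0.328) and in litter 2 alone it was -0.74 (SE 0.228). With a sex term, the value of litter 1 sets mutants 1 and 2 against control 1, the only female control of that litter. Flrt1 passed in 4 of 27 alternatives, at an adjusted p of 0.0228 with DESeq2, 2.64e-05 with no filter on low counts, 0.0181 without control 2 and 0.0493 without control 4. It stood at 0.428 without mutants 1 and 4, the shallowest libraries, at 0.84 at equal depth and at 0.0898 with limma-voom. With no sex term the log2 fold change was -0.67 (adjusted p = 0.190 by edgeR). With the striatal marker score, given further on, as a covariate it was -0.78 (adjusted p = 0.131 by edgeR). Mutant 4 was the only male mutant behind the sex term. Flrt1 (ENSMUSG00000047787.7) lies on mm10 chromosome 19 from 7092001 to 7105729, within Macrod1 on the opposite strand, and the exons of the pair do not overlap. Macrod1 had 217 counts in all. Whether the authors counted by strand is not given in the sources used here, so reads of nested or antisense genes cannot be told apart where they overlap.

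Flrt2, whose protein repels UNC5-bearing neurons, had 328, 463, 409.8, 367, 383 and 500.0 CPM in mutants 1 to 6 and 319, 471, 416, 308, 349 and 349 CPM in controls 1 to 6. The highest value was that of mutant 6 and the groups overlapped along nearly their whole range. The log2 fold change of Flrt2, a gene of chromosome 12 from 95692226 to 95785215, was 0.20 (SE 0.152, 95% interval -0.16 to 0.55, adjusted p = 0.801). The bases upstream of the Flrt2 start, and of the start of Tenm4 described further on, are shown because, of the 10 genes, these had the Pearson r farthest from 0 with the striatal marker score given further on. They are the 250 bases before the start in RefSeq (GRCm38.p6), 5′ to 3′ on the strand of the gene, with every E-box (CANNTG, which reads the same on both strands) in capitals. The Flrt2 window is chr12:95691976-95692225 on the plus strand and the Tenm4 window is chr7:96170994-96171243 on the plus strand.
Flrt2: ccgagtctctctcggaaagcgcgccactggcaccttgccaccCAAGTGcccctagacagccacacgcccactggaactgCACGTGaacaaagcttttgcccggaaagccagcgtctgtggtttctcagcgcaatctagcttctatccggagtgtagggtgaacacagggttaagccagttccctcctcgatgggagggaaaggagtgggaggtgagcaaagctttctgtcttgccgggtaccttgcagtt
Tenm4: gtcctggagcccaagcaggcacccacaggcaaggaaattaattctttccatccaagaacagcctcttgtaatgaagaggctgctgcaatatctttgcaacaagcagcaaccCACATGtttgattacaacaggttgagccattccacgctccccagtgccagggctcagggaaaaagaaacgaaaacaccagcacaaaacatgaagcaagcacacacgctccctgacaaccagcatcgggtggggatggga
The Flrt2 window held 2 E-boxes, 12 CpG dinucleotides and 57.2% G and C. The Tenm4 window held 1 E-box, 4 CpG dinucleotides and 50.8% G and C. Tenm4 had another start in RefSeq, 40425 bases from the GENCODE M21 gene start, against 2 bases for the start shown. Its window (chr7:96211421-96211670), not printed, held 3 E-boxes, 8 CpG dinucleotides and 51.6% G and C. An E-box was present in 66.2% of 32536 distinct upstream windows of that length, which had a median of 6 CpG dinucleotides, so holding one is common among windows. Of the 10 genes, 9 had an entry in the promoter table, and only 4 (Flrt2, Flrt3, Tenm4 and Adgrl1) had a start there within 100 bases of the GENCODE M21 gene start.

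Flrt3, an FLRT with known binding to latrophilin-3 and to Robo1, had 30.4, 51.1, 28.2, 21.8, 42.0 and 22.3 CPM in mutants and 30.5, 21.2, 33.5, 20.9, 38.8 and 31.3 CPM in controls. The groups overlapped throughout, with mutants 2 and 5 above every control. The log2 fold change of Flrt3 was 0.03 (SE 0.267, 95% interval -0.58 to 0.65, adjusted p = 1.000). Flrt3 lies within Macrod2 on the opposite strand (chromosome 2, 140650914 to 140671469), with no overlap of exons, and Macrod2 had 30164 counts in all.

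Of the receptors and other partners of FLRTs none passed in the fit with litter and sex terms, and 3 passed under at least 1 alternative. The share of all genes that did so was not computed, so the 3 cannot be read as a result about these partners. Over all genes, 199 were lower and 62 higher of 24283 with no filter on low counts. Without litter and sex terms these counts were 118 and 23 of 10678. In a list of 10 partners (Unc5a to Unc5d, Robo1, Fgfr1, Fgfr2, Gpc3, Rnd1 and Rnd3), 10 were tested and 0 were called by edgeR, where 0.215% of all genes were. Of the partners 5 were negative and 5 positive, and their median was 0.15, against -0.00088 over all genes. Unc5d, the receptor that keeps migrating cortical neurons in the multipolar stage, averaged 1754 ± 285 CPM over the mutants, against 1887 ± 208 CPM over the controls (SD, n = 6 each), a log2 difference of -0.14 (SE 0.135, adjusted p = 0.852). Unc5c had 0.36 (SE 0.179, adjusted p = 0.608), Unc5b had -0.54 (SE 0.276, adjusted p = 0.611) and Unc5a had -0.01 (SE 0.269, adjusted p = 1.000). A pair of other partners, picked out after their values were seen, stood apart in mean level without passing in that fit. Gpc3, a glypican that binds UNC5D, had 37.6 ± 7.02 CPM in mutants and 15.1 ± 9.53 CPM in controls, with 5 of 6 mutants above every control (log2 fold change 1.04, SE 0.301, adjusted p = 0.234 by edgeR). Its mutant and control means were 34.7 and 9.56 CPM in litter 1, and 39.1 and 26.0 CPM in litter 2. The litter 2 minus litter 1 log2 value was 0.81 (adjusted p = 0.155 by edgeR). The interaction of genotype and litter was -1.27 (unadjusted p = 0.00783, adjusted p = 0.529 by edgeR). Gpc3 passed at an adjusted p of 0.000351 with no filter on low counts, 0.0487 without litter and sex terms and 0.0260 without control 5. Fgfr2, a fibroblast growth factor receptor, had 280.1 ± 23.5 CPM in mutants and 209.4 ± 23.2 CPM in controls, again with 5 of 6 mutants above every control (0.31, SE 0.0997, adjusted p = 0.276). Fgfr2 passed without litter and sex terms (adjusted p = 0.0232), and Fgfr1, another receptor of that family, passed with no filter on low counts (-0.49, adjusted p = 0.0381).

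**Figure D2:**
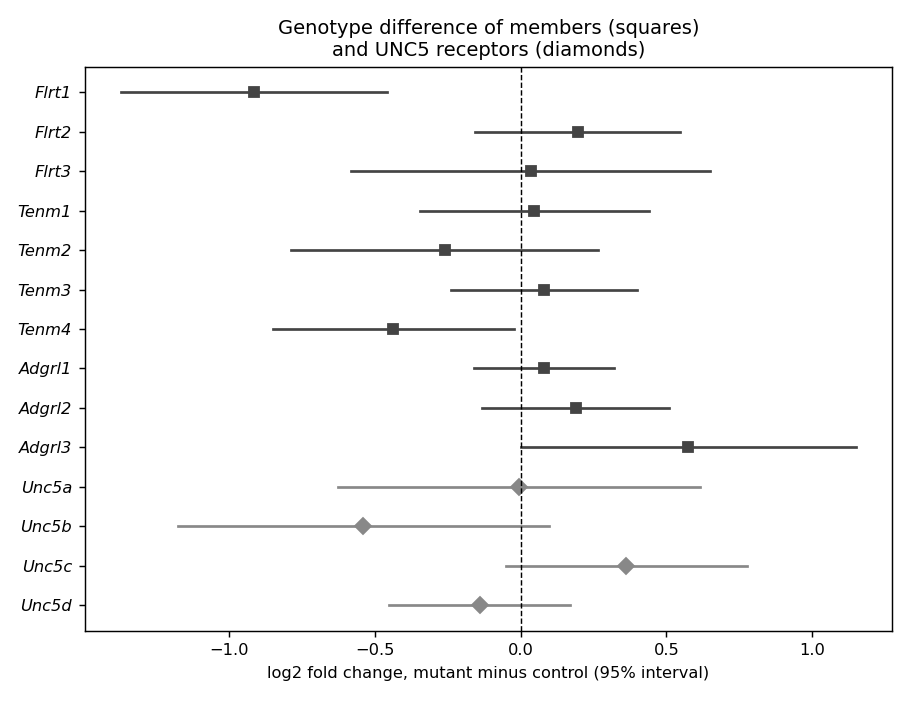
Log2 fold change, mutant minus control (horizontal axis), of the 10 genes (squares) and of the UNC5 receptors (diamonds), from the fit with litter and sex terms. Lines are 95% intervals from the SE, unadjusted for the number of genes. The Flrt1 interval runs from -1.37 to -0.46, and those of Tenm4 and Adgrl3 end close to 0.

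The teneurins were the most abundant of the 3 families in CPM, with sums of 5626 to 7470 CPM in the mutants, against 6400.3 to 11543 CPM in the controls. The wider control range came from Tenm2. Teneurin genes are long, from 616 to 1229 kilobases of span with 0.933 to 2.84% of it in exons, so the order of the levels depends on which length a count is set against.

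Tenm2 (chromosome 11, 36006656 to 37235964) encodes teneurin-2, the ligand first found for latrophilin-1. Mutants 1 to 6 had 3019, 3675, 2984, 3321, 3196 and 2443 CPM of Tenm2, and controls 1 to 6 had 6838, 4485, 5508, 7389.9, 3012 and 2365 CPM. Controls 1 to 4, all of litter 1, stood above every other library, while controls 5 and 6 of litter 2 lay within or below the mutant range. The litter 1 mean was 3347 CPM for mutants, against 6055 CPM for controls. The litter 2 mean was 2986 CPM for mutants, against 2689 CPM for controls. The log2 fold change of Tenm2 over all libraries was -0.26 (SE 0.228, 95% interval -0.79 to 0.26, adjusted p = 0.834). Fitted within litters, it was -1.04 (SE 0.284, adjusted p = 0.287) in litter 1, against control 1 alone, and 0.23 (SE 0.156, adjusted p = 0.710) in litter 2. The interaction of genotype and litter was 0.98 (SE 0.285), with an unadjusted p of 0.00344 and an adjusted p of 0.504 by edgeR, so the difference between litters did not pass. No gene of the whole table passed that interaction test (0%), and 776 genes, or 7.27%, had an unadjusted p under 0.05. Without litter and sex terms the value of Tenm2 was -0.67 (adjusted p = 0.264). In the fit with both terms but without control 1 it was 0.0054. Litter 1 then held only female mutants and only male controls, so its genotype difference cannot be told apart from sex.

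Tenm4 (chromosome 7, 96171246 to 96911093), a teneurin also known for its role in the myelin-forming lineage, had 2024, 2011, 2409, 2784, 3201 and 2322 CPM in mutants 1 to 6 and 3332, 1667, 2235, 3168, 3863 and 3234 CPM in controls 1 to 6. Only mutant 5 lay above the control mean, yet controls 2 and 3 were as low as the mutants. Tenm4 averaged 2459 ± 462 CPM over the mutants, against 2916 ± 807 CPM over the controls (SD, n = 6 each), and the log2 fold change was -0.44 (SE 0.179, 95% interval -0.85 to -0.02, adjusted p = 0.467). The value was -0.73 (SE 0.314) in litter 1, against control 1 alone, and -0.35 (SE 0.165) in litter 2. With the striatal marker score as a covariate it was -0.26 (adjusted p = 0.577 by edgeR). Such a shift was not particular to Tenm4. With that covariate Tenm2 went from -0.26 to -0.09 and Flrt2 from 0.20 to 0.10, while Flrt3, Tenm3 and Adgrl1 moved farther from 0. The Tenm4 value was -0.28 (adjusted p = 0.773 by edgeR) without control 1, a fit in which litter 1 held only female mutants and only male controls. With no filter on low counts its adjusted p was 0.0477.

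**Figure D3:**
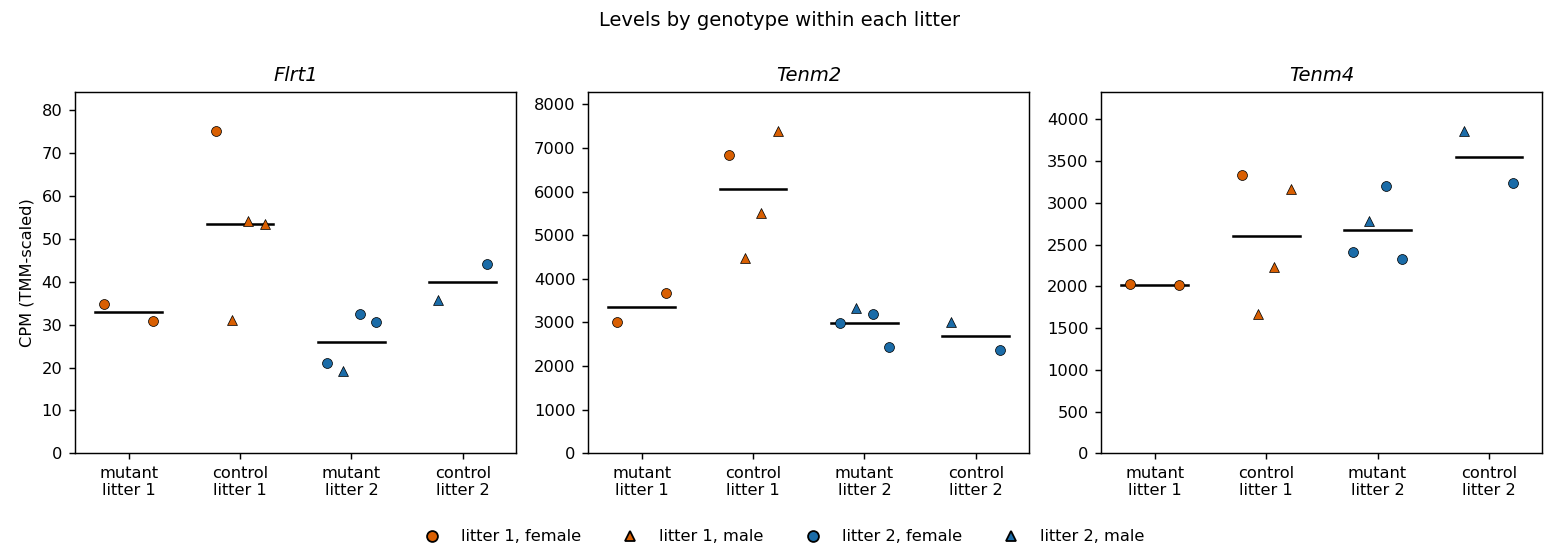
TMM-scaled CPM (vertical axes, from 0) of Flrt1, Tenm2 and Tenm4 by genotype within each litter, mutants left of controls of the same litter. Points are libraries and lines are means. The 4 litter 1 controls of Tenm2 stand at 4485 to 7389.9 CPM, above every other library, and the Flrt1 mean is lower in mutants in both litters.

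Tenm3, a teneurin that matches axons to their targets in the visual system and hippocampus, had 509 to 846 CPM in mutants, with a median of 708, and 596 to 814 CPM in controls, with a median of 685. Its means were nearly equal, 692 ± 125 CPM over the mutants and 692 ± 74.1 CPM over the controls, and the log2 fold change was 0.08 (SE 0.139, 95% interval -0.24 to 0.40, adjusted p = 0.953). Tenm1, the X-linked teneurin, had 199, 219, 174, 254, 227 and 212 CPM in mutants 1 to 6 and 203, 329, 303, 172, 214 and 205 CPM in controls 1 to 6. Controls 2 and 3 stood above all mutants, and the other controls lay within or just below the mutant range. The log2 fold change of Tenm1 was 0.05 (SE 0.171, adjusted p = 0.987). Between the sexes it averaged 205 CPM in females and 255 CPM in males, a female minus male log2 value of -0.31 (SE 0.164, adjusted p = 0.752). By sex 0 of the 10 genes were called with edgeR, DESeq2 or limma-voom, where 0.00937% of all genes were called by edgeR. The sex values farthest from 0 were those of Adgrl3 (-0.54, SE 0.233, adjusted p = 0.712) and Flrt1 (0.50, SE 0.187, adjusted p = 0.700).

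The latrophilins are the receptors on which both other families converge. Adgrl1, which binds alpha-latrotoxin and teneurin-2, was the steadiest of the 10 genes. Its mutant values were 302 to 380.1 CPM and its control values 293 to 385 CPM, with a coefficient of variation of 9.18% in mutants and 10.3% in controls. Its log2 fold change was 0.08 (SE 0.104, 95% interval -0.16 to 0.32, adjusted p = 0.915). Adgrl2, which is concentrated at specific synapses of hippocampal neurons, had 726, 645, 737, 818, 884 and 734 CPM in mutants and 452, 702, 504, 708, 657 and 833 CPM in controls. All 6 mutants lay above the control mean, but 5 of them lay below control 6. The log2 fold change of Adgrl2 was 0.19 (SE 0.139, 95% interval -0.13 to 0.51, adjusted p = 0.791). It was 0.59 (adjusted p = 0.581) in litter 1, against control 1 alone, and 0.08 (adjusted p = 0.941) in litter 2. Without control 1, which left only female mutants and only male controls in litter 1, it was 0.05. Without control 6 it was 0.46, and neither value passed.

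Adgrl3 (chromosome 5, 81020138 to 81825133), the high-affinity receptor of FLRT3, had 1367, 1069.5, 1397, 2016, 789 and 1405 CPM in mutants 1 to 6 and 948, 1546, 1619, 869, 843 and 884 CPM in controls 1 to 6. Mutant 4, a male, stood above every other library, mutant 5 stood below every other library, and controls 2 and 3 stood above the 4 other controls. Adgrl3 averaged 1341 ± 410.4 CPM over the mutants, against 1118 ± 362 CPM over the controls (SD, n = 6 each), a log2 difference of 0.58 (SE 0.249, 95% interval 0.0017 to 1.15, adjusted p = 0.540). The value was 0.35 (SE 0.363) in litter 1, against control 1 alone, and 0.76 (SE 0.301) in litter 2. It was 0.26 (adjusted p = 0.739) without litter and sex terms.

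Genes that act with or beside latrophilins and FLRTs were counted for comparison. Over all genes tested, 0.159% were called lower and 0.0562% higher, with a median of -0.00088, so 0 called is usual for lists this short. Of 15 G proteins, scaffolds and neurexins that couple to or bind latrophilins, 15 were tested and 0 were called, with a median of -0.06. Of 17 other adhesion G protein-coupled receptors 12 were tested and 0 were called, with a median of 0.01. Of 21 other leucine-rich repeat adhesion genes 19 were tested, 1 was lower (Lrrtm4, a synaptic organiser, log2 fold change -0.97, SE 0.146, adjusted p = 0.00961), 0 were higher, and the median was -0.02. Lrrtm4 had 238 to 365 CPM in mutants and 440.2 to 910.3 CPM in controls. It no longer passed without mutant 1 (-0.95, adjusted p = 0.0680), without control 6 (-1.08, adjusted p = 0.0544) or without mutants 1 and 4 (-1.10, adjusted p = 0.102).

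Between litters, 0 of the 10 genes passed by edgeR, where 1.31% of all genes did. At an unadjusted p under 0.05 stood 4 of the 10, where 15.4% of all genes did. These were Tenm2 (litter 2 minus litter 1 log2 value -0.68, SE 0.206, adjusted p = 0.133), Tenm4 (0.44, SE 0.160, adjusted p = 0.201), Flrt1 (-0.44, SE 0.175, adjusted p = 0.227) and Adgrl2 (0.28, SE 0.122, adjusted p = 0.283).

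Tenm4 was the only gene of the 10 whose Pearson correlation with a striatal marker score passed after adjustment, and its rank correlation did not pass. The striatal score is the mean z score of the 6 measured striatal markers, with mutants at -0.77 to 0.98 and controls at -1.48 to 1.29. Of the 10 genes, whose relations to the score were computed after the libraries had been seen, Tenm4 had a Pearson r of -0.77 over the 12 libraries (permutation p = 0.00433, adjusted p = 0.0433 over 10 relations) and a Spearman rho of -0.68 (permutation p = 0.0184, adjusted p = 0.0932). Without controls 1 and 2, the libraries farthest from the median score, r was -0.66. Within litter 1 it was -0.93 and within litter 2 -0.70, and it was -0.49 within mutants and -0.85 within controls (n = 6 each). Flrt2 ran the other way, with r = 0.66 (permutation p = 0.0218, adjusted p = 0.109) and rho = 0.68 (permutation p = 0.0186, adjusted p = 0.0932). The relation of Flrt2 to the score was r = 0.50 without controls 1 and 2, 0.12 within mutants, 0.96 within controls, 0.58 within litter 1 and 0.87 within litter 2. For the 8 other genes the adjusted p of r was 0.234 or more. With the score as a covariate in the genotype fit, 0 of the 10 genes were called. The part of the cortical and interneuron markers in these values was not tested.

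**Figure D4:**
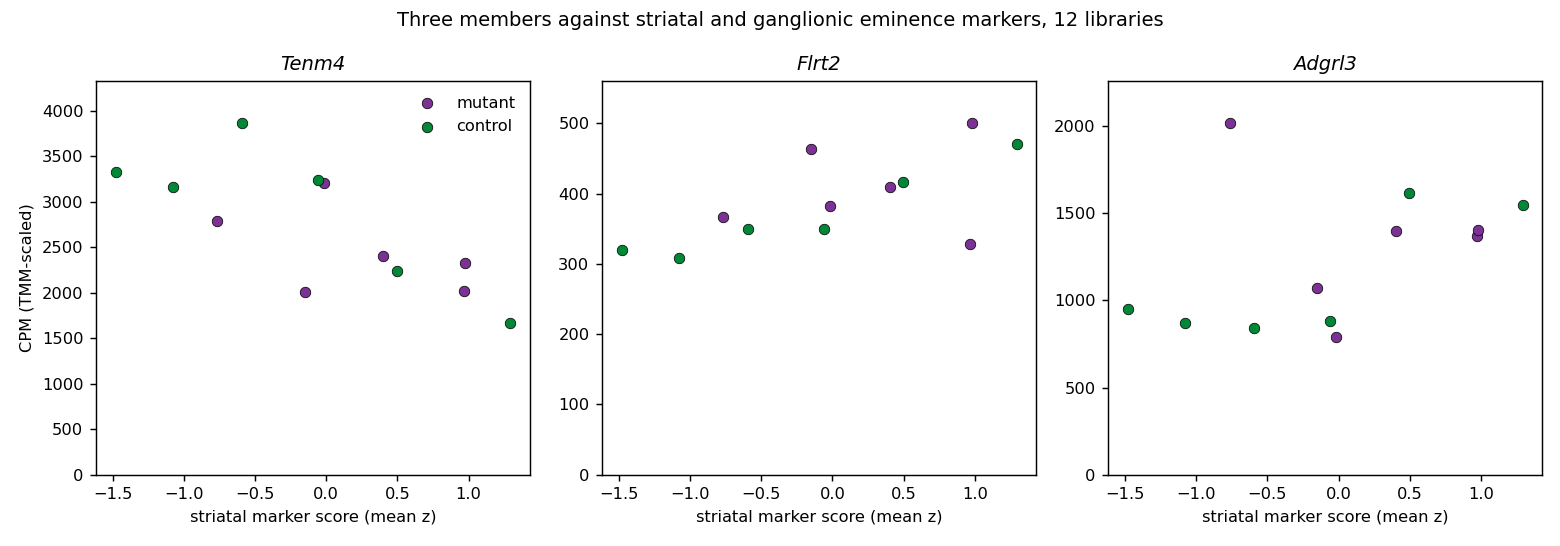
TMM-scaled CPM (vertical axes, from 0) of Tenm4, Flrt2 and Adgrl3 against the striatal marker score (horizontal axes, mean z score) in 12 libraries, mutants and controls in different colours. Tenm4 falls with the score (r = -0.77) and Flrt2 runs upward (r = 0.66), and the high Adgrl3 point at a low score is mutant 4.

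Among themselves the 10 genes formed 45 pairs, of which 21 had a positive r and 0 passed after adjustment (smallest adjusted p 0.218 for Pearson's r and 0.344 for Spearman's rho). The pair with the most negative r was Flrt1 and Adgrl2, at -0.67 (permutation p = 0.0167) with rho = -0.50 (permutation p = 0.0998), and it was -0.36 without control 1 and mutant 4, -0.76 within litter 1 and 0.01 within litter 2. Tenm2 and Adgrl2 had r = -0.66 (permutation p = 0.0195) and rho = -0.62 (permutation p = 0.0370), with -0.70 without controls 1 and 4, -0.49 within litter 1 and 0.09 within litter 2. Flrt2 and Tenm4 had r = -0.66 (permutation p = 0.0231) and rho = -0.62 (permutation p = 0.0383), with -0.56 without mutant 6 and control 2, -0.79 within litter 1 and -0.81 within litter 2. Tenm4 and Adgrl3 had r = -0.66 (permutation p = 0.0233) and rho = -0.64 (permutation p = 0.0294), with -0.56 without controls 2 and 5, -0.78 within litter 1 and -0.71 within litter 2. The pair with the most positive r was Flrt1 and Tenm2, at 0.64 (permutation p = 0.0242) with rho = 0.44 (permutation p = 0.155), and it was 0.56 without control 1 and mutant 4, 0.82 within litter 1 and -0.62 within litter 2. Within mutants alone r lay between -0.19 and -0.11 for these 5 pairs. Tenm2 and Tenm4, the genes of the 10 with the highest mean CPM, had r near 0 over the 12 libraries (r = 0.04, permutation p = 0.902, rho = -0.15, permutation p = 0.651). The pair stood at r = -0.49 without controls 1 and 4, at 0.79 within litter 1 and at 0.19 within litter 2.

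Per kilobase of exon, the mean level over the 12 libraries was highest for Tenm2, at 350.3 CPM per kilobase, followed by Tenm4 at 128, Adgrl3 at 69.3, Tenm3 at 67.6, Flrt2 at 50.3, Adgrl2 at 49.3, Adgrl1 at 38.5, Tenm1 at 12.7, Flrt1 at 6.58 and Flrt3 at 6.37. Between neighbours in this order the library ranges were apart only for Tenm2 and Tenm4 and for Adgrl1 and Tenm1, and all other neighbours overlapped. Per kilobase of gene span the order was another one, led by Adgrl1 at 7.90 CPM per kilobase, Flrt2 at 4.18, Adgrl2 at 4.001 and Tenm4 at 3.63, with Tenm2 at 3.27 and Tenm1 last at 0.251. Whether the authors counted exons or whole genes is not given in the sources used here, so neither order can be preferred.

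**Figure D5:**
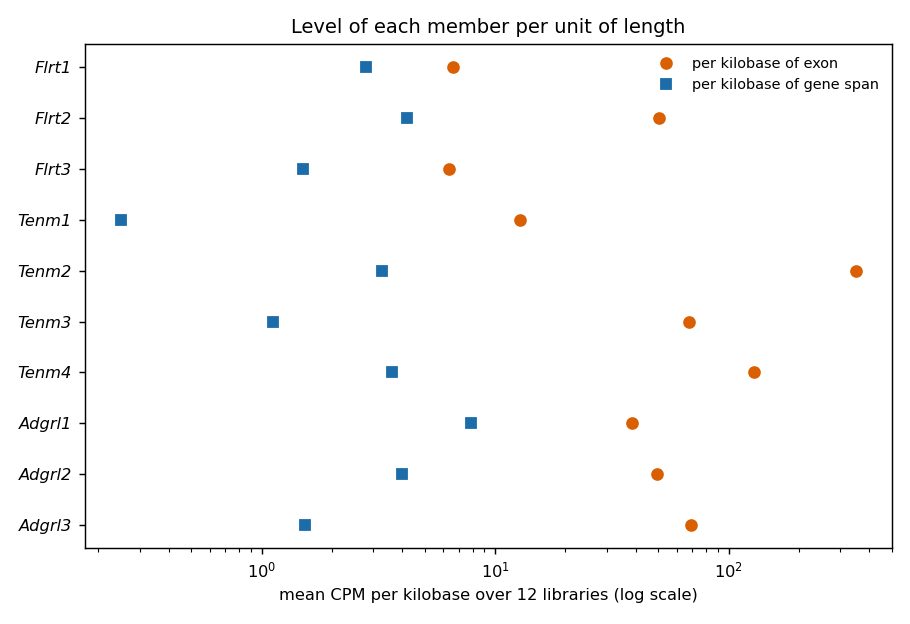
Mean CPM over 12 libraries per kilobase of exon (circles) and per kilobase of gene span (squares), on a log axis. Tenm2 leads by exon length at 350.3 and Adgrl1 leads by span at 7.90.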

How the data were processed

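RNA from micro-dissected cortex was extracted with Trizol, depleted of ribosomal RNA and made into ClickSeq libraries with molecular tags, per the labels' protocols. The submitters' processing notes name the mm10 build, STAR 2.5.2a, HTSeq 0.6.1p1, edgeR 3.20.9, UMI-tools 0.5.3, cutadapt 1.13 and bcl2fastq 2.17. No source used here gives the order of the steps, the annotation release or the counting mode. Each deposited file carries the raw counts of 1 library by Ensembl gene. The 5 closing entries that name no gene (20.7 to 31.6% of a file) were left out.

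Symbols, positions and lengths were taken from GENCODE M21, which is on GRCm38 (mm10). Of the 10 identifiers 9 matched with their version and Flrt1 matched without it. Genes were kept by filterByExpr (minimum count 10), scaled by TMM and tested with edgeR 4.0.16 under R 4.3.3 in a model of litter, sex and genotype with 8 residual degrees of freedom (estimateDisp, glmQLFit with robust = TRUE, glmQLFTest). SE is the log2 fold change divided by the square root of F, and 95% intervals use the t distribution with 8 degrees of freedom. CPM of every gene uses the TMM library sizes of the genes tested. The fit was tested on simulated counts with 200 changed genes and no litter or sex effects. That test therefore cannot show how the overlap of litter and sex with genotype bears on the fit. Marker scores used log2(CPM + 1), correlations used the same values with 100000 permutations, and limma 3.58.1 and DESeq2 1.42.0 were alternatives. No 2 libraries were copies (chi-square per degree of freedom 1.86 or more in 66 pairs).

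The genes, lists and alternatives were chosen with earlier results of these data known. The text names the 10 genes, the UNC5 receptors, Arid1a and, of each list, up to 4 genes past the threshold, and Gpc3, Fgfr2 and Fgfr1 were added after their values were seen. Alternatives were another filter, scaling, test, covariate or library set, equal depth and removal of a trend with gene span. Some genes of the cortical marker list are not reported here, and its values were computed without them.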

Additional observations from a re-analysis of the deposited data

How the results depend on the processing

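Of the 10678 genes tested, 17 were lower and 6 higher in mutants. The counts were 199 and 62 of 24283 tested with no filter on low counts. With the same 10678 genes tested, they were 77 and 18 with DESeq2, 16 and 3 with limma-voom, 63 and 14 with no sex term, 19 and 2 with no litter term, and 118 and 23 with neither. They were 3 and 2 of 11204 in litter 1, 41 and 23 of 11154 in litter 2, and 37 and 7 of 11661 in females. With the striatal score as covariate they were 27 and 6 of 10678, and at equal depth 6 and 0 of 8105. Without the 2 shallowest libraries they were 0 and 0 of 11205 (edgeR, 700 genes at an unadjusted p under 0.05). Leaving out 1 library gave 5 to 45 lower and 0 to 10 higher. Of the 10 genes, 2 were lower with no filter (199 of 24283 over all genes), 1 with DESeq2 (77 of 10678 over all genes) and 0 to 1 with 1 library left out. Flrt1 stayed negative in all 27 alternatives, at -1.21 to -0.67, and passed in 4. The cause of these changes was not tested.

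Log2 fold changes of the other sign, none past the threshold, were these. Tenm1 had -0.11 with no sex term, -0.15 with neither term, -0.16 at equal depth and -0.040 with the striatal score. Flrt3 had -0.22 in litter 2 and -0.17 at equal depth, Tenm2 0.23 in litter 2, Tenm3 -0.18 in litter 1, Rnd1 -0.29 in litter 2, Robo1 0.026 and Unc5d 0.049 in litter 1, and Unc5c -0.043 with neither term. Unc5a had 0.0082 with upper-quartile scaling, 0.029 with DESeq2, 0.032 in litter 2, 0.0053 with the span trend removed and 0.16 with the striatal score. With 1 library left out the ranges were -0.19 to 0.18 for Flrt3, -0.00063 to 0.12 for Tenm1, -0.56 to 0.0054 for Tenm2, -0.0082 to 0.20 for Tenm3, -0.27 to 0.16 for Unc5a, -0.22 to 0.015 for Unc5d and -0.060 to 0.58 for Rnd1. For sex, Tenm3 had 0.020 and Adgrl2 0.015 with the span trend removed, and with 1 library left out Flrt2 ran from -0.22 to 0.029, Tenm2 from -0.49 to 0.016, Tenm4 from -0.066 to 0.21 and Adgrl2 from -0.28 to 0.080.

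No paired analysis was possible because the replicate numbers only follow the listing of the libraries. At equal depth, 8105 genes were tested and 0 of the 10 were called by edgeR.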
